A study of Rattus norvegicus with 16 samples.

Results

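The genes described here are the Wnt ligands, their Frizzled receptors and Lrp5 and Lrp6 co-receptors, the R-spondins and the secreted inhibitors of the Dickkopf, Sfrp and Wif1 families. They were taken by symbol from the gene table, as every Wnt, Fzd, Dkk (with Dkkl1), Sfrp and Rspo gene carrying a family number, together with Lrp5, Lrp6 and Wif1. This gave 45 of 32623 genes: 19 Wnt ligands, 10 Frizzled receptors, 2 co-receptors, 4 R-spondins and 10 secreted inhibitors. Their RNA levels were measured in an indirect co-culture of 2 rat kidney cell lines, and the question was how each line's RNA differed between normal and acidic medium. NRK-52E, a line described as epithelial, grew on filter inserts, and NRK-49F, a line described as fibroblast, grew in the wells beneath them, so that the lines shared medium without touching. After a serum-free period the co-cultures were kept for 48 h in medium of pH 7.4 or pH 6.0, and RNA of each line was sequenced separately. The labels write these media as pH 7 and pH 6, while the study's methods give 7.4 and 6.0. The 4 groups of 4 libraries were NRK-52E at pH 7.4 (libraries N1, N2, N5 and N6), NRK-52E at pH 6.0 (N3, N4, N7 and N8), NRK-49F at pH 7.4 (N9, N10, N13 and N14) and NRK-49F at pH 6.0 (N11, N12, N15 and N16). Values of single libraries are given in that order throughout.

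Wnt proteins are secreted, lipid-modified signals that bind Frizzled receptors together with Lrp5 or Lrp6. In the canonical branch this binding stops the breakdown of beta-catenin, which then works with TCF/LEF factors at target genes, whereas the non-canonical branches act on cell polarity and calcium. R-spondins raise the amount of receptor at the cell surface. Some Dickkopf proteins, Dkk4 among them, block the co-receptors, and Sfrp proteins and Wif1 bind the ligands. The class of secreted inhibitors was set here by gene family and not by action. In the kidney the pathway is known for nephron formation and for its activity in injury and fibrosis.

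Fragments assigned to genes ranged from 16201084 to 34784862 per library. Levels are in FPM, a unit scaled to library size with TMM over the 16 libraries (edgeR's CPM, here of assigned fragments), given for single libraries or as mean ± SD over the 4 libraries of a group. A level compares groups for 1 gene and not genes with each other, since gene length was not taken into account. Changes are log2 fold changes ± SE, and FDR is the Benjamini-Hochberg adjusted p-value of edgeR's quasi-likelihood test over all genes tested. A change was called where the FDR was below 0.01 in both edgeR and DESeq2 with the same sign, and a difference between the pH effects of the lines where the edgeR interaction test over all 16 libraries had an FDR below 0.01. The labels do not say that the libraries came from separate cultures, so these p-values measure the spread between these samples, which may be technical. In such bulk RNA, fewer cells expressing a gene and less RNA per cell cannot be told apart. Fragments that aligned to several places were counted at each of them and no strand setting is named, so reads from near-identical, overlapping or antisense genes cannot be told apart. The table's column names carry a second number of unstated meaning, 21 for N1 to N4, 22 for N5 to N8, 20 for N9 to N12 and 21 for N13 to N16. Changes within a number (2 against 2 libraries) are given where a call was lost there.

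Markers of the labelled cell types were only partly present. Of 10 epithelial markers, Epcam, Cdh16 and Esrp1 were each at a mean of less than 0.1 FPM in all 4 groups, and 5 of the 10 reached 1 FPM in NRK-52E at pH 7.4 and 3 at pH 6.0. Their summed level ranged from 470 to 542 FPM over the NRK-52E libraries at pH 7.4 and from 311 to 377 FPM at pH 6.0, most of it Krt8. Krt8 also had the most fragments of them in NRK-49F, where the sum ranged from 786 to 949 FPM at pH 7.4 and from 199 to 221 FPM at pH 6.0. Such sums, and the gene that leads a list, are by fragments and take no account of gene length. The 8 proximal tubule markers summed to between 56.3 and 74.9 FPM in NRK-52E at pH 7.4 and to between 25.9 and 36.9 FPM at pH 6.0, led by Aqp1, with Slc34a1 below 0.1 FPM at both. In NRK-49F they summed to between 142 and 195 FPM at pH 7.4 and to between 364 and 560.4 FPM at pH 6.0, led by Ggt1. Of 10 fibroblast markers, 7 reached 1 FPM in NRK-49F, led by Col1a1 with a mean of 6205 FPM at pH 7.4 and 8288 FPM at pH 6.0, while Thy1 and Fap were below 0.1 FPM in all 4 groups. The fibroblast list was also high in NRK-52E, led by Col3a1 with a mean of 6221 FPM at pH 7.4 and 2630.4 FPM at pH 6.0. Among 3 endothelial markers, Tek had a mean of 41.1 FPM in NRK-52E at pH 7.4 and 7.02 FPM at pH 6.0, with Kdr below 0.1 FPM in every group. Among 4 leukocyte markers, Cd68 had a mean of 81.2 FPM in NRK-49F at pH 7.4 and 243 FPM at pH 6.0, with Ptprc and Adgre1 below 0.1 FPM in every group. The 5 podocyte and distal tubule markers summed to at most 1.43 FPM in any library. The lines are therefore called by their names, NRK-52E and NRK-49F, and the part of these marker levels in the results was not tested.

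At pH 6.0 members of the set moved in both directions. Fzd1, Fzd4 and Rspo1 fell in both lines, Wif1 and Wnt7b rose in both, Fzd6 and Fzd8 fell in NRK-52E and rose in NRK-49F, and Wnt4 rose in NRK-52E and fell in NRK-49F. In NRK-52E 22 members passed the filter on low counts, of which 4 were called higher at pH 6.0 (28.2% of all tested genes were) and 10 lower (28.5%). In NRK-49F 23 were tested, with 4 called higher (18.4% of all tested genes) and 8 lower (19.4%). NRK-52E against NRK-49F gave 14 members called higher of 24 tested at pH 7.4 (33.3% of all tested genes) and 7 lower (33.3%), and 10 higher of 24 at pH 6.0 (28.6%) and 9 lower (31.3%). The interaction was called for 8 of 26 members, 3 with the more positive pH effect in NRK-52E (19.4% of all tested genes) and 5 with the more positive effect in NRK-49F (17.6%). These shares of the members were not tested against those of all genes. The median log2 fold change of the tested members was −0.33 in NRK-52E, against 0.00 over all tested genes, and −0.21 in NRK-49F, against −0.00. The comparisons between lines and between pH values share libraries and are not independent of each other.

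These directions are relative to TMM scaling. With library totals in its place the median log2 fold change of all genes moved to 0.04 in NRK-49F and −0.21 in NRK-52E, the median difference between the lines to 0.34 at pH 7.4 and 0.12 at pH 6.0, and the median interaction to −0.25. Changes below are relative to the TMM scale. With library totals, 2 members were called higher and 11 lower in NRK-52E, beside 4 and 10 with TMM, and of all genes 2900 were called higher and 4815 lower, beside 3877 and 3916. For the lines at pH 7.4 the totals gave 6375 genes higher in NRK-52E and 3323 lower, beside 4668 and 4670, for those at pH 6.0, 4556 higher and 3734 lower, beside 3939 and 4312, and for the interaction 1829 and 3596, beside 2841 and 2587. Of the members' calls between 2 groups, those that changed were the calls of Wnt4 (0.29, FDR 0.0194) and Wnt7b (0.23, FDR 0.140), which were lost in NRK-52E, that of Fzd2 in NRK-52E, which was gained (−0.54 (FDR 0.00339)), and that of Fzd8 between the lines at pH 7.4, which was lost (−0.41 (FDR 0.0205)).

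**Figure D1:**
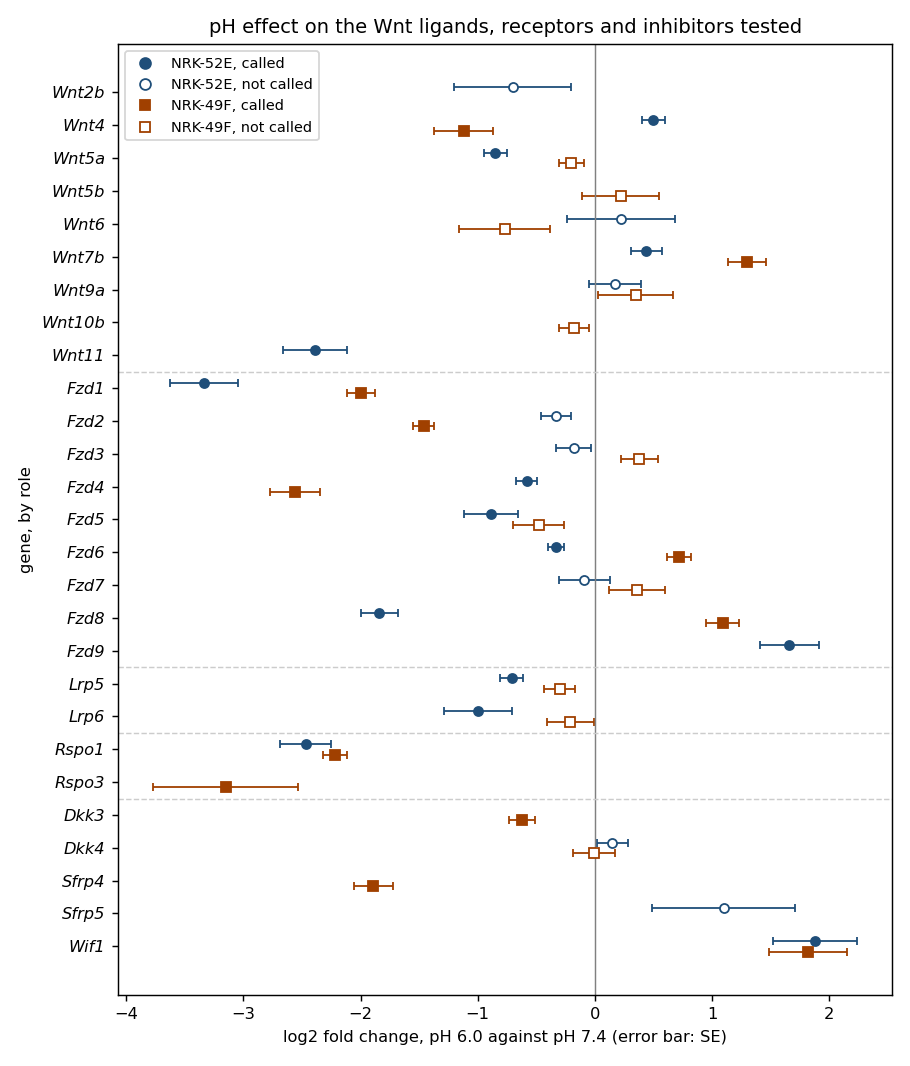
Log2 fold change at pH 6.0 against pH 7.4 of the 27 members tested at least once, in NRK-52E and in NRK-49F, with bars of 1 SE and filled points for called changes, on TMM scaling. Fzd1, Fzd4 and Rspo1 lie below 0 in both lines and Wif1 and Wnt7b above 0 in both; with library totals Wnt7b is no longer called in NRK-52E and Wnt4 is no longer called there.

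Of the 19 ligands 7 were tested in NRK-52E, with 2 called higher and 2 lower, and 7 in NRK-49F, with 1 called in each direction. Among all tested genes 28.2% were called higher and 28.5% lower in NRK-52E, and 18.4% and 19.4% in NRK-49F. Wnt4 (ENSRNOG00000013166, chromosome 5 of build rn6) encodes the ligand that drives the conversion of kidney mesenchyme into nephron epithelium. Wnt4 in NRK-52E was at 36.9, 35, 31.3 and 29.9 FPM at pH 7.4 and 48.4, 47.4, 45.6 and 49 FPM at pH 6.0. In NRK-49F it was at 5.77, 6.01, 3.82 and 5.30 FPM at pH 7.4 and 1.86, 3.65, 2.18 and 2.22 FPM at pH 6.0. All 4 acidic NRK-52E libraries lay above the 4 at pH 7.4, whereas in NRK-49F they lay below, with only a small gap between N12 and N13. The log2 fold change was 0.50 ± 0.10 (FDR 9.77e-04) in NRK-52E and −1.12 ± 0.25 (FDR 0.00281) in NRK-49F. In NRK-52E the change was 0.37 in the libraries numbered 21 and 0.61 in those numbered 22, called in neither. In NRK-49F it was −1.14 in the libraries numbered 20 and −1.08 in those numbered 21, also called in neither, and the call was lost without N10 (−1.03, FDR 0.0104) and N15 (−1.05, FDR 0.0121). Wnt7b (ENSRNOG00000015750, chromosome 7), a ligand made by collecting duct epithelium that signals through Reck and Adgra2 in brain vessels, was at 28.4, 28.4, 30.0 and 27.8 FPM at pH 7.4 and 33.1, 35.7, 41.0 and 47.1 FPM at pH 6.0 in NRK-52E. Wnt7b in NRK-49F was at 12.7, 11.8, 12.3 and 18.9 FPM at pH 7.4 and 34.4, 27.9, 39.4 and 37.3 FPM at pH 6.0. The acidic libraries were the higher ones in both lines without overlap, and N14 stood above the other NRK-49F libraries at pH 7.4. Wnt7b rose by a log2 fold change of 0.44 ± 0.13 (FDR 0.00945) in NRK-52E and 1.30 ± 0.16 (FDR 3.50e-05) in NRK-49F. The NRK-52E call is fragile, being lost without N1 (0.42, FDR 0.0257), N2 (0.43, FDR 0.0287), N4 (0.47, FDR 0.010), N5 (0.44, FDR 0.0235), N6 (0.40, FDR 0.0309) and N7 (0.43, FDR 0.0240), with no filter on low counts (0.41 (FDR 0.0148)) and with all 16 libraries in the fit (0.42 (FDR 0.0171)). Within a number it was 0.24 in the libraries numbered 21 and 0.59 in those numbered 22, called in neither.

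Wnt5a (ENSRNOG00000015618, chromosome 16), the prototype of the non-canonical ligands that signal through Ror1 and Ror2, was added to the members given by library after its values were seen. Wnt5a in NRK-52E was at 109, 117, 114 and 109 FPM at pH 7.4 and 65.0, 74.7, 60.3 and 52.5 FPM at pH 6.0. Wnt5a in NRK-49F was at 74.5, 69.9, 53.0 and 63.8 FPM at pH 7.4 and 62.6, 51.7, 57.2 and 58.8 FPM at pH 6.0. The acidic NRK-52E libraries were all lower than those at pH 7.4, while the NRK-49F groups overlapped. Wnt5a fell in NRK-52E with a log2 fold change of −0.85 ± 0.10 (FDR 3.33e-05), and the value in NRK-49F was −0.20 ± 0.11 (FDR 0.156). Wnt11 (ENSRNOG00000015982, chromosome 1), a non-canonical ligand of the branching ureteric bud, was at 5.81, 5.49, 4.35 and 4.28 FPM at pH 7.4 and 0.734, 1.12, 0.656 and 1.32 FPM at pH 6.0 in NRK-52E. Its counts in NRK-49F were 0 in all 4 libraries at pH 7.4 and 1, 2, 0 and 0 at pH 6.0. Wnt11 had next to no counts in NRK-49F, and in NRK-52E its acidic libraries were all the lower ones. The log2 fold change of Wnt11 in NRK-52E was −2.39 ± 0.27 (FDR 1.69e-05), with −2.62 in the libraries numbered 21 and −2.15 in those numbered 22, the latter not called (FDR 0.0125).

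Wnt9a (ENSRNOG00000003066, chromosome 10), a ligand known from joint formation, was at 11.4, 12, 12.3 and 11.1 FPM at pH 7.4 and 13, 16.6, 16.1 and 7.38 FPM at pH 6.0 in NRK-52E. In NRK-49F Wnt9a was at 1.71, 1.11, 0.790 and 1.27 FPM at pH 7.4 and 1.77, 0.928, 1.59 and 1.91 FPM at pH 6.0. The pH groups overlapped in both lines, and N8 was the lowest of the NRK-52E libraries while the other acidic ones were the highest. The log2 fold change was 0.17 ± 0.22 (FDR 0.496) in NRK-52E, where library totals gave −0.03, and 0.35 ± 0.32 (FDR 0.38) in NRK-49F. Wnt10b (ENSRNOG00000061238, chromosome 7), a canonical ligand that restrains fat cell formation, was at 19.3, 19.7, 15.7 and 19.1 FPM at pH 7.4 and 16.4, 13.7, 16.1 and 19.4 FPM at pH 6.0 in NRK-49F. Its counts in NRK-52E were 2, 2, 2 and 1 at pH 7.4 and 1, 0, 0 and 6 at pH 6.0. Wnt10b was near 0 in NRK-52E, and its NRK-49F groups overlapped, with a log2 fold change of −0.18 ± 0.13 (FDR 0.272). Wnt5b (ENSRNOG00000008168, chromosome 4), a paralog of Wnt5a, was at 1.26, 1.26, 1.32 and 1.5 FPM at pH 7.4 and 1.06, 0.862, 2.14 and 2.1 FPM at pH 6.0 in NRK-49F. In NRK-52E its counts were 2, 8, 8 and 1 at pH 7.4 and 0, 1, 1 and 5 at pH 6.0. Wnt5b was low in both lines, and the NRK-49F groups overlapped, with a log2 fold change of 0.22 ± 0.33 (FDR 0.593).

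Wnt2b, which acts as a mesenchymal signal in several organs, ranged from 0.703 to 1.07 FPM in NRK-52E at pH 7.4 and from 0.0940 to 0.944 FPM at pH 6.0, overlapping groups with a log2 fold change of −0.70 ± 0.50 (FDR 0.228). Its counts in NRK-49F were at most 8 in any library. Wnt6, a ligand of the early ureteric epithelium, ranged from 0.328 to 1.07 FPM at pH 7.4 and 0.315 to 1.13 FPM at pH 6.0 in NRK-52E, and from 0.708 to 0.80 FPM and 0.250 to 0.753 FPM in NRK-49F, and was not called in either line. Of the remaining ligands, Wnt1, Wnt2, Wnt3, Wnt3a, Wnt7a, Wnt8a, Wnt8b, Wnt9b and Wnt10a had at most 9 counts in each library and were not tested, and Wnt16 had no count in any. The same held for Dkk1, Rspo4 and Sfrp2 (at most 9 counts) and for Dkk2, Fzd10, Rspo2 and Sfrp1 (no count), so that 12 members were detected at this low depth only and 5 not at all. A count of 0 over the 16 libraries allows a level of up to 0.00849 FPM, and such limits cover counting error only.

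The Frizzled receptors, whose extracellular cysteine-rich domain binds the Wnt lipid, were the class with the most tested members in both lines. Of 9 tested in NRK-52E 1 was called higher and 5 lower, and of 8 in NRK-49F 2 higher and 3 lower. The shares of all tested genes were 28.2% higher and 28.5% lower in NRK-52E, and 18.4% and 19.4% in NRK-49F. Fzd1 (ENSRNOG00000016242, chromosome 4), a receptor closely related to Fzd2 and Fzd7, was at 71.4, 77.0, 78.5 and 74.5 FPM at pH 7.4 and 3.85, 6.16, 7.17 and 12.7 FPM at pH 6.0 in NRK-52E. Fzd1 in NRK-49F was at 148, 145, 148 and 186 FPM at pH 7.4 and 42.3, 42.8, 34.0 and 38.8 FPM at pH 6.0. The acidic libraries were far below the others in both lines, and N14 was the highest NRK-49F library. Fzd1 fell with a log2 fold change of −3.34 ± 0.29 (FDR 2.78e-06) in NRK-52E and −2.0 ± 0.12 (FDR 1.33e-07) in NRK-49F. Fzd4 (ENSRNOG00000016848, chromosome 1), which is also the receptor of Norrin, was at 198, 218, 224 and 208 FPM at pH 7.4 and 129, 163, 154 and 129 FPM at pH 6.0 in NRK-52E. Fzd4 in NRK-49F was at 66.3, 69.6, 51.7 and 58.3 FPM at pH 7.4 and 16.2, 10.1, 7.93 and 8.19 FPM at pH 6.0. The groups did not overlap in either line, and the acidic NRK-49F libraries were much lower relative to pH 7.4 than the acidic NRK-52E libraries. Fzd4 fell with a log2 fold change of −0.58 ± 0.09 (FDR 2.47e-04) in NRK-52E and −2.56 ± 0.21 (FDR 1.89e-06) in NRK-49F. Within a number the NRK-52E change was −0.55 in the libraries numbered 21 and −0.63 in those numbered 22, called in neither.

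Fzd6 (ENSRNOG00000004660, chromosome 7), a receptor of planar cell polarity, was at 185, 186, 186 and 185 FPM at pH 7.4 and 150, 152, 155 and 141 FPM at pH 6.0 in NRK-52E. Fzd6 in NRK-49F was at 62.1, 63.5, 63.3 and 61.7 FPM at pH 7.4 and 87.1, 97.5, 113 and 119 FPM at pH 6.0. The pH 7.4 libraries lay close together in each line, with the acidic ones all below them in NRK-52E and all above them in NRK-49F. The log2 fold change of Fzd6 was −0.33 ± 0.07 (FDR 0.00157) in NRK-52E, with −0.34 in the libraries numbered 21 and −0.35 in those numbered 22 (called in neither), and 0.72 ± 0.10 (FDR 1.06e-04) in NRK-49F. Fzd8 (ENSRNOG00000061031, chromosome 17), a close relative of Fzd5, was at 9.93, 10.8, 10.9 and 8.62 FPM at pH 7.4 and 2.57, 2.79, 3.07 and 2.96 FPM at pH 6.0 in NRK-52E. Fzd8 in NRK-49F was at 18.1, 18.9, 14.2 and 19.1 FPM at pH 7.4 and 33.0, 31.9, 45.5 and 40.8 FPM at pH 6.0. The lines moved apart, as the acidic libraries were the lower ones in NRK-52E and the higher ones in NRK-49F, again without overlap. The log2 fold change of Fzd8 was −1.84 ± 0.16 (FDR 3.31e-06) in NRK-52E and 1.09 ± 0.14 (FDR 4.12e-05) in NRK-49F. Fzd5 (ENSRNOG00000014678, chromosome 9) was at 5.11, 7.17, 6.92 and 5.66 FPM at pH 7.4 and 2.87, 4.18, 4.30 and 2.26 FPM at pH 6.0 in NRK-52E. Fzd5 in NRK-49F was at 11, 9.05, 6.91 and 13.2 FPM at pH 7.4 and 8.86, 7.49, 5.49 and 7.69 FPM at pH 6.0. The NRK-52E groups did not overlap, with N8 lowest, and the NRK-49F groups did. Fzd5 fell in NRK-52E with a log2 fold change of −0.89 ± 0.23 (FDR 0.00576), and the value in NRK-49F was −0.48 ± 0.22 (FDR 0.0783). The NRK-52E call was lost without N2 (−0.82, FDR 0.0211), N3 (−0.83, FDR 0.0178), N5 (−0.86, FDR 0.0174) and N6 (−0.95, FDR 0.0115), and within a number the change was −0.84 in the libraries numbered 21 and −0.96 in those numbered 22, called in neither.

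Fzd2 (ENSRNOG00000021962, chromosome 10), a receptor for Wnt5a among other ligands, was at 196, 178, 176 and 171 FPM at pH 7.4 and 122, 129, 142 and 185 FPM at pH 6.0 in NRK-52E. Fzd2 in NRK-49F was at 98.3, 102, 101 and 117 FPM at pH 7.4 and 42.0, 36.3, 39.7 and 35.8 FPM at pH 6.0. The NRK-49F groups were far apart, whereas the NRK-52E groups overlapped through N8 alone, which lay among the libraries at pH 7.4. Fzd2 fell in NRK-49F with a log2 fold change of −1.46 ± 0.09 (FDR 2.84e-07), and the value in NRK-52E was −0.33 ± 0.13 (FDR 0.0413), not called. It was called in NRK-52E without N8 (−0.49 (FDR 1.77e-04)) and within the libraries numbered 21 (−0.62), with −0.10 in those numbered 22. Fzd7 (ENSRNOG00000016119, chromosome 9), a receptor of stem and mesenchymal cells, was at 71.7, 80.2, 80.1 and 77.4 FPM at pH 7.4 and 76.6, 98.1, 84.3 and 37.1 FPM at pH 6.0 in NRK-52E. Fzd7 in NRK-49F was at 24.6, 25.2, 9.35 and 23.8 FPM at pH 7.4 and 31.7, 22.7, 28.8 and 24.7 FPM at pH 6.0. The pH groups overlapped in both lines, and N8 and N13 were far below the other libraries of their groups. The log2 fold change of Fzd7 was −0.09 ± 0.22 (FDR 0.734) in NRK-52E, where it was 0.13 without N8, and 0.36 ± 0.24 (FDR 0.227) in NRK-49F. Fzd9 (ENSRNOG00000001452, chromosome 12), a receptor of the subfamily that also holds Fzd10, was at 2.30, 2.01, 3.86 and 2.5 FPM at pH 7.4 and 8.44, 6.56, 8.32 and 10.9 FPM at pH 6.0 in NRK-52E. Its counts in NRK-49F were 0, 1, 0 and 0 at pH 7.4 and 1, 5, 0 and 7 at pH 6.0. Fzd9 was thus almost restricted to NRK-52E, where the acidic libraries were all higher. Fzd9 rose there with a log2 fold change of 1.66 ± 0.25 (FDR 1.65e-04), with 1.76 in the libraries numbered 21 and 1.57 in those numbered 22, the latter not called. Fzd3, a receptor needed for axon guidance, ranged from 8.5 to 10.1 FPM at pH 7.4 and 7.42 to 9.45 FPM at pH 6.0 in NRK-52E. In NRK-49F Fzd3 ranged from 4.35 to 5.02 FPM and 5.97 to 6.54 FPM, groups that did not overlap but were not called (log2 fold change 0.38 ± 0.16, FDR 0.0607).

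**Figure D2:**
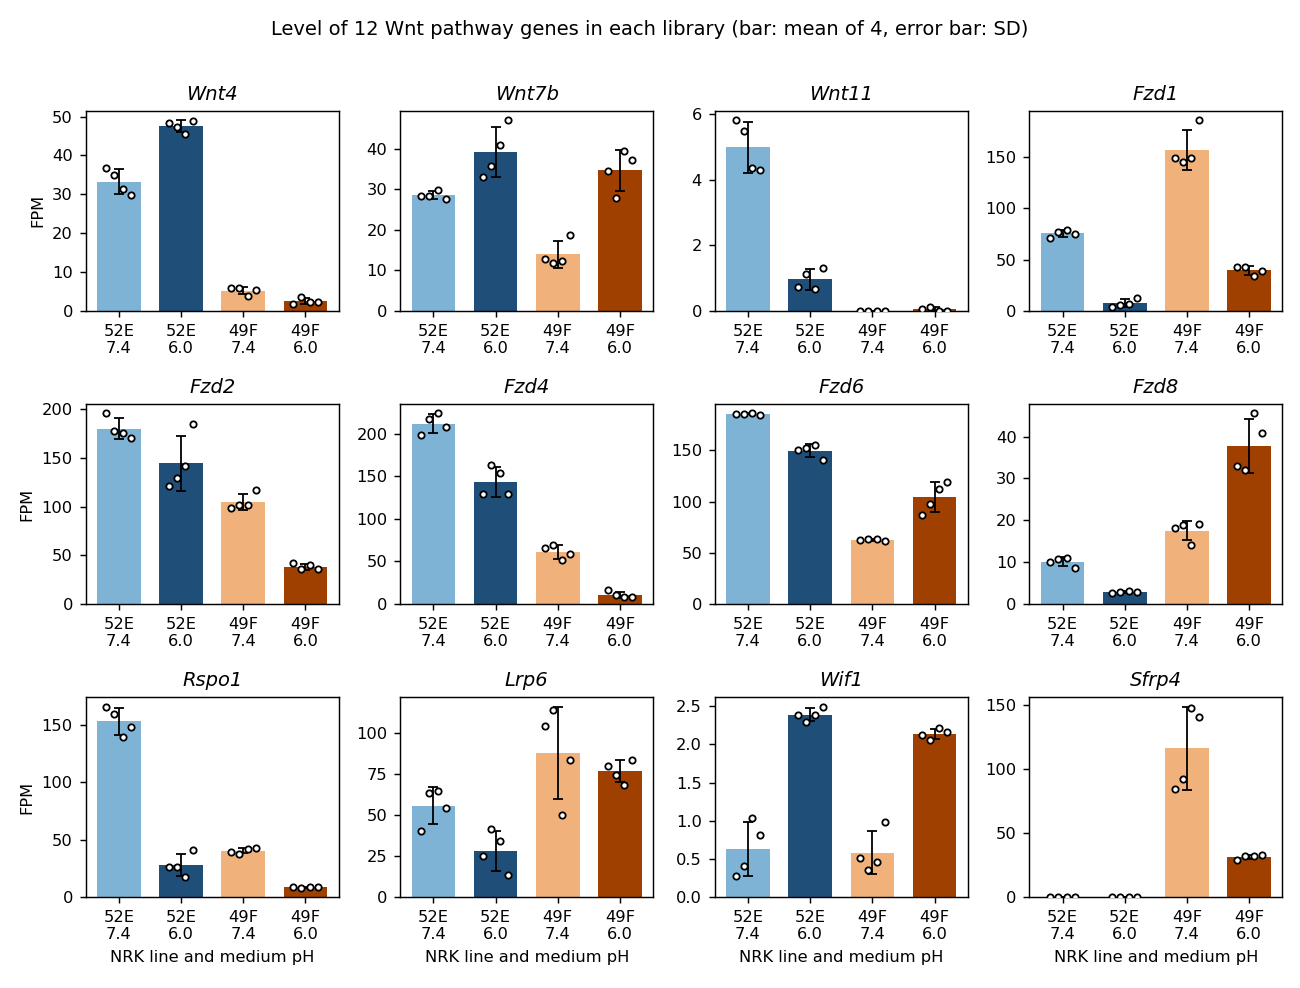
Levels in FPM of 12 members in the 4 groups, with bars for the mean of 4 libraries, error bars of 1 SD and points for the single libraries. Fzd1 has means of 75.4 and 7.48 FPM at pH 7.4 and pH 6.0 in NRK-52E and of 157 and 39.5 FPM in NRK-49F, and Sfrp4 is near 0 in NRK-52E.

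Lrp5 (ENSRNOG00000015911, chromosome 1) and Lrp6 (ENSRNOG00000006338, chromosome 4) encode the co-receptors that bind Axin once a Wnt has joined them to a Frizzled. Lrp5 in NRK-52E was at 119, 136, 126 and 118 FPM at pH 7.4 and 82.5, 81.5, 82.1 and 62.5 FPM at pH 6.0. Lrp5 in NRK-49F was at 835, 804, 664 and 1039.9 FPM at pH 7.4 and 664, 588, 774 and 709.7 FPM at pH 6.0. In NRK-52E the acidic libraries were all lower, with N8 below the other acidic ones, while the NRK-49F groups overlapped. Lrp5 fell in NRK-52E with a log2 fold change of −0.71 ± 0.10 (FDR 1.13e-04), with −0.68 in the libraries numbered 21 and −0.78 in those numbered 22, the latter not called. In NRK-49F the value was −0.30 ± 0.13 (FDR 0.0669), and it was called within the libraries numbered 20 (−0.39) but not within those numbered 21 (−0.22). Lrp6 in NRK-52E was at 40.3, 63.3, 64.7 and 54.2 FPM at pH 7.4 and 24.8, 41.4, 34.2 and 13.3 FPM at pH 6.0. Lrp6 in NRK-49F was at 104, 114, 50.2 and 83.7 FPM at pH 7.4 and 80.0, 74.6, 68.5 and 83.6 FPM at pH 6.0. The groups overlapped in both lines, through N1 and N4 in NRK-52E, and N8 and N13 were the lowest libraries of their lines. Lrp6 was called lower in NRK-52E with a log2 fold change of −1.0 ± 0.29 (FDR 0.00939), and the value in NRK-49F was −0.21 ± 0.20 (FDR 0.385). The NRK-52E call was lost without N2 (−0.93, FDR 0.0259), N3 (−0.95, FDR 0.0331), N5 (−0.94, FDR 0.0247), N6 (−1.03, FDR 0.0201) and N7 (−1.09, FDR 0.0134) and with the column-name number as a covariate (−1.01 (FDR 0.0148)). Within a number the change in NRK-52E was −0.69 in the libraries numbered 21 and −1.35 in those numbered 22, called in neither, and in NRK-49F −0.49 in the libraries numbered 20 and 0.16 in those numbered 21, of which the former was called.

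Rspo1 (ENSRNOG00000009656, chromosome 5) encodes an R-spondin, which binds Lgr4, Lgr5 or Lgr6 and blocks the ligases Znrf3 and Rnf43 that remove Frizzled receptors. Rspo1 in NRK-52E was at 166, 159, 139 and 148 FPM at pH 7.4 and 26.5, 26.3, 17 and 40.9 FPM at pH 6.0. Rspo1 in NRK-49F was at 39.3, 38.0, 41.7 and 42.5 FPM at pH 7.4 and 8.63, 8.42, 8.90 and 9.13 FPM at pH 6.0. Every acidic library was far below every library at pH 7.4 of its line. Rspo1 fell with a log2 fold change of −2.47 ± 0.22 (FDR 3.40e-06) in NRK-52E and −2.22 ± 0.10 (FDR 3.84e-08) in NRK-49F, and the interaction did not pass (−0.28 ± 0.24, FDR 0.350). Rspo3, an R-spondin of blood vessels and mesenchyme, had 15, 10, 12 and 22 counts in NRK-49F at pH 7.4 and 5, 1, 0 and 2 at pH 6.0. These 59 and 8 counts give a ratio of 9.52 after depth (exact 95% interval 4.53 to 23.1, counting error only). Rspo3 was called lower in NRK-49F, with a log2 fold change of −3.15 ± 0.62 (FDR 0.00115), between −4.11 and −2.64 with 1 library left out. It was below the filter on low counts within the libraries numbered 20, with a filter of 1 CPM in 4 libraries and with all 16 libraries in the fit, and within those numbered 21 it was −4.53 (FDR 0.00565) in edgeR and not called. In NRK-52E it had at most 7 counts in a library.

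Of the 10 secreted inhibitors 3 were tested in NRK-52E, with 1 called higher, and 4 in NRK-49F, with 1 called higher and 2 lower. Over all tested genes, 28.2% were called higher and 28.5% lower in NRK-52E, and 18.4% and 19.4% in NRK-49F. Wif1 (ENSRNOG00000004476, chromosome 7), a secreted protein that binds Wnts directly, was at 0.281, 0.410, 1.04 and 0.809 FPM at pH 7.4 and 2.39, 2.29, 2.38 and 2.49 FPM at pH 6.0 in NRK-52E. Wif1 in NRK-49F was at 0.514, 0.354, 0.461 and 0.988 FPM at pH 7.4 and 2.13, 2.06, 2.21 and 2.16 FPM at pH 6.0. Wif1 was low in every library, and the acidic libraries were the higher ones in both lines without overlap. Wif1 rose with a log2 fold change of 1.88 ± 0.36 (FDR 7.89e-04) in NRK-52E and 1.82 ± 0.33 (FDR 5.98e-04) in NRK-49F. It was not called within the NRK-52E libraries numbered 22 (1.37, against 2.68 in those numbered 21) or the NRK-49F libraries numbered 21 (1.51, against 2.27 in those numbered 20). Sfrp4 (ENSRNOG00000054957, chromosome 17), whose Frizzled-like domain binds Wnts, was at 84.4, 91.9, 148 and 140.1 FPM at pH 7.4 and 29.3, 31.9, 32.0 and 33.1 FPM at pH 6.0 in NRK-49F. In NRK-52E its only count was 1 in N8. Sfrp4 was nearly restricted to NRK-49F at this depth, and there it fell with a log2 fold change of −1.89 ± 0.17 (FDR 3.59e-06), the groups being far apart. Dkk3 (ENSRNOG00000016343, chromosome 1), a divergent Dickkopf protein, was at 102, 97.0, 83.4 and 91.6 FPM at pH 7.4 and 74.3, 60.7, 54.7 and 57.1 FPM at pH 6.0 in NRK-49F. Dkk3 counts in NRK-52E were 1, 1, 2 and 3 at pH 7.4 and 0, 2, 0 and 0 at pH 6.0. The acidic NRK-49F libraries of Dkk3 were all lower, and it fell with a log2 fold change of −0.62 ± 0.11 (FDR 7.37e-04), with −0.56 in the libraries numbered 20 and −0.67 in those numbered 21, the latter not called. Dkk4, a Dickkopf protein that binds Lrp5 and Lrp6, ranged from 11.9 to 14.9 FPM at pH 7.4 and 13 to 16 FPM at pH 6.0 in NRK-52E and from 4.94 to 5.79 FPM and 4.44 to 6.24 FPM in NRK-49F, overlapping in each line and not called. Sfrp5, a relative of Sfrp1 and Sfrp2, ranged from 0.0410 to 0.871 FPM and 0.428 to 1.03 FPM in NRK-52E (log2 fold change 1.10 ± 0.61, FDR 0.130), and had at most 8 counts in an NRK-49F library. N5 held 21 of its 32 NRK-52E counts at pH 7.4, and without N5 it was called higher at pH 6.0. Dkkl1, a protein related to Dkk3, had 49 counts over the NRK-52E libraries at pH 7.4 and 1 at pH 6.0, a ratio of 45.4 after depth (exact 95% interval 7.78 to 1831, counting error only). The 1 count was in N8, so that without N8 only a lower bound could be given. Dkkl1 did not pass the filter on low counts, but was called lower by DESeq2 alone, with no filter, and without any 1 of N1, N3, N4, N7 and N8.

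The pH effects of the lines differed beyond the threshold for 8 of 26 members, 3 more positive in NRK-52E and 5 in NRK-49F, where of all tested genes 19.4% and 17.6% did. The interaction is the log2 fold change in NRK-52E minus that in NRK-49F. Fzd8, which fell in NRK-52E and rose in NRK-49F, had an interaction of −2.94 ± 0.21 (FDR 7.81e-09). For Fzd6, with the same pair of directions, it was −1.06 ± 0.12 (FDR 1.81e-06). Wnt4, which moved the other way in each line, had 1.62 ± 0.24 (FDR 2.28e-05). These 3 members were called in opposite directions in the lines. The calls of Wnt4 in both lines and of Fzd6 in NRK-52E were lost in some alternatives, as given above. Fzd4 fell more in NRK-49F, with an interaction of 1.96 ± 0.24 (FDR 3.23e-06), and so did Fzd2, with 1.11 ± 0.16 (FDR 1.99e-05). Fzd1 fell more in NRK-52E, with −1.35 ± 0.29 (FDR 9.72e-04). For Wnt5a the interaction was −0.67 ± 0.16 (FDR 0.00221), its fall in NRK-52E being the only one called. Wnt7b rose more in NRK-49F, with an interaction of −0.88 ± 0.21 (FDR 0.00232). All 8 were also called in each alternative setting computed for the interaction, library totals and the leaving out of any 1 library among them. With library totals Lrp5 and Fzd3 were added, with DESeq2 alone and at an FDR of 0.05 Wnt11 and Fzd3, and without N8 Fzd3. Interactions are not given for Wnt11, Wnt10b, Fzd9, Sfrp4 and Dkk3, which were near 0 in one of the lines.

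Between the lines, the members differed most where 1 line had almost no RNA of a gene. As NRK-52E grew on filter inserts and NRK-49F in wells, line and growth support cannot be told apart in these comparisons. Sfrp4 at pH 7.4 had 9081 counts over the NRK-49F libraries and 0 over those of NRK-52E, so it was at least 3537-fold higher in NRK-49F, against a floor of 3 counts over the summed depth of the NRK-52E group. At pH 6.0 Sfrp4 had 3186 counts in NRK-49F and 1 in NRK-52E, a ratio of 2674 (exact 95% interval 480 to 105632), with a log2 difference of −10.85, and −12.53 without N8, which held the 1 count. Wnt11 stood on the other side, with 453 counts in NRK-52E and 0 in NRK-49F at pH 7.4, at least 129-fold higher in NRK-52E against the same kind of floor. Wnt11 at pH 6.0 had 81 and 3 counts, a ratio of 32.2 (10.6 to 159), with a log2 difference of 4.72, between 4.21 and 5.80 with 1 library left out, and was below a filter of 1 CPM in 4 libraries. Dkk3 was 1218 times as high in NRK-49F as in NRK-52E at pH 7.4 (591 to 3030), from 7294 and 7 counts. At pH 6.0 Dkk3 had 6100 and 2 counts, a ratio of 2559 (708 to 21139), with a log2 difference of −11.06, and −13.49 without N4, which held both NRK-52E counts. Wnt10b was likewise a gene of NRK-49F, with a ratio of 242 at pH 7.4 (117 to 602) and 203 at pH 6.0 (98.3 to 506). At pH 6.0 N8 held 6 of its 7 NRK-52E counts, and the log2 difference between the lines was −9.61 without N8, beside −7.55 with it. Fzd9 was a gene of NRK-52E, with 244 counts against 1 at pH 7.4, a ratio of 209 (37.1 to 8280), with a log2 difference of 7.23, between 6.81 and 8.87 with 1 library left out. At pH 6.0 the log2 difference of Fzd9 was 5.95 ± 0.53 (FDR 8.30e-07), from 719 and 13 counts. The exact intervals, here and wherever else they are given, cover counting error only.

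The other members called between the lines differed by less. Lrp5 was lower in NRK-52E than in NRK-49F at both pH values, by log2 differences of −2.66 ± 0.13 (FDR 5.02e-09) at pH 7.4 and −3.16 ± 0.14 (FDR 1.33e-09) at pH 6.0. Fzd1 was also lower in NRK-52E, by −0.97 ± 0.09 (FDR 1.66e-06) and −2.41 ± 0.28 (FDR 9.38e-06). Wnt5b was lower in NRK-52E at pH 7.4 by −2.58 ± 0.42 (FDR 1.55e-04), and at pH 6.0, from 7 and 170 counts, NRK-49F was higher by a ratio of 20.4 (exact 95% interval 9.68 to 51.5). Of those 7 counts 5 were in N8, the log2 difference was −5.44 without N8, beside −4.18 with it, and Wnt5b at pH 6.0 was below a filter of 1 CPM in 4 libraries. Fzd8 was lower in NRK-52E too, by −0.72 ± 0.13 (FDR 4.10e-04) and −3.74 ± 0.17 (FDR 2.33e-09). Lrp5, Fzd1, Wnt5b and Fzd8 were thus genes with more RNA in NRK-49F at both pH values. Wnt9a was higher in NRK-52E, by 3.31 ± 0.20 (FDR 2.70e-08) at pH 7.4 and 3.05 ± 0.30 (FDR 2.15e-06) at pH 6.0. Wnt4 was higher in NRK-52E by 2.74 ± 0.14 (FDR 8.51e-09) and 4.28 ± 0.20 (FDR 2.51e-09). Rspo1 was higher there by 2.0 ± 0.08 (FDR 7.01e-10) and 1.65 ± 0.23 (FDR 3.51e-05). Fzd7 was higher by 1.98 ± 0.23 (FDR 1.25e-05) and 1.44 ± 0.24 (FDR 1.88e-04), the libraries of the lines not overlapping at either pH. Fzd4 (1.87 ± 0.10), Wnt2b (2.24 ± 0.39), Fzd6 (1.65 ± 0.06), Dkk4 (1.40 ± 0.13), Fzd3 (1.0 ± 0.13), Wnt5a (0.87 ± 0.10) and Fzd2 (0.87 ± 0.08) were also called higher in NRK-52E at pH 7.4, Wnt2b, with 15 counts over the NRK-49F libraries, being below a filter of 1 CPM in 4 libraries and not called with the column-name number as a covariate (2.42). Of these, Fzd2 (1.90 ± 0.14), Fzd4 (3.75 ± 0.22), Fzd6 (0.51 ± 0.11) and Dkk4 (1.46 ± 0.17) were called higher in NRK-52E at pH 6.0 as well. Fzd5 (−1.13 ± 0.26, FDR 0.00180) and Lrp6 (−1.45 ± 0.26, FDR 3.13e-04) were called lower in NRK-52E at pH 6.0. At pH 7.4 the values were −0.63 (FDR 0.0153) for Fzd5 and −0.57 (FDR 0.0367) for Lrp6, not called. Both were called at pH 7.4 at an FDR of 0.05 and without N13, Fzd5 also with no filter and with DESeq2 alone. Wnt7b differed at pH 7.4 (1.11 ± 0.14, FDR 2.67e-05) and was not called at pH 6.0 (0.16 ± 0.15, FDR 0.354). Fzd8, Fzd6, Fzd5 and Lrp6 lost a call between the lines when the column-name number was a covariate, Fzd8 at pH 7.4 (−0.62, FDR 0.0187) and the others at pH 6.0 (Fzd6 0.38, FDR 0.0393, Fzd5 −0.90, FDR 0.0580, Lrp6 −1.21, FDR 0.0130).

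The other genes of the pathway were grouped into 7 lists by their known roles, chosen with earlier results of these data known. Of all tested genes, 28.2% were called higher and 28.5% lower in NRK-52E, and 18.4% and 19.4% in NRK-49F. The medians of all tested genes are given above. Wnt secretion and processing had 4 tested genes, of which 1 rose and 1 fell in each line, with median log2 fold changes of 0.01 in NRK-49F and 0.13 in NRK-52E. Tmed2, a p24 cargo receptor of the early secretory path, rose in NRK-52E from 254 ± 13.7 FPM to 563 ± 24.6 FPM, a log2 fold change of 1.13 ± 0.08 (FDR 7.37e-07). Porcn, the acyltransferase that attaches the Wnt lipid, fell in NRK-52E from 17.4 ± 1.56 FPM to 11.2 ± 2.63 FPM, a log2 fold change of −0.66 ± 0.18 (FDR 0.00672). Its call was lost without N1 (−0.61), N2 (−0.69), N3 (−0.64), N4 (−0.59), N5 (−0.71), N6 (−0.68) and N7 (−0.59), with an FDR between 0.0113 and 0.0233, and within a number it was −0.89 in the libraries numbered 21 and −0.46 in those numbered 22, the latter not called. Tmed5, another p24 protein, rose in NRK-49F from 7.84 ± 2.35 FPM to 16.8 ± 1.28 FPM, a log2 fold change of 1.08 ± 0.19 (FDR 5.78e-04). Wls, the carrier that takes Wnts to the cell surface, fell in NRK-49F from 213 ± 6.57 FPM to 135 ± 24.7 FPM, a log2 fold change of −0.67 ± 0.11 (FDR 3.72e-04). Within a number the change of Wls was −0.85 in the libraries numbered 20 and −0.51 in those numbered 21, the latter not called. The interaction was 1.05 ± 0.12 (FDR 1.08e-06) for Tmed2 and 0.69 ± 0.15 (FDR 9.45e-04) for Wls, which was not called with library totals (0.45 (FDR 0.0201)).

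Other receptors and receptor regulators had 11 tested genes in NRK-52E, with 1 higher and 7 lower, and 10 in NRK-49F, with 5 lower and 5 not called (medians −0.38 and −0.59). Ror1, a tyrosine kinase receptor of Wnt5a, fell in NRK-52E from 46.0 ± 3.19 FPM to 7.57 ± 2.36 FPM, a log2 fold change of −2.62 ± 0.20 (FDR 1.20e-06). Ptk7, a pseudokinase of planar polarity, fell in NRK-52E from 64.5 ± 4.33 FPM to 14.3 ± 2.87 FPM, a log2 fold change of −2.20 ± 0.14 (FDR 4.60e-07). Reck, the membrane protein that makes a receptor complex selective for Wnt7, fell in NRK-52E from 65.9 ± 4.79 FPM to 13.2 ± 3.31 FPM, a log2 fold change of −2.33 ± 0.17 (FDR 1.04e-06). Ror1 and Ptk7 fell in NRK-49F as well, Ror1 from 21.7 ± 1.06 FPM to 4.81 ± 0.812 FPM (−2.19 ± 0.15, FDR 4.19e-07). Ptk7 there went from 6.70 ± 1.5 FPM to 1.44 ± 0.498 FPM, with −2.23 ± 0.27 (FDR 2.93e-05). Ror2, the paralog of Ror1, fell in NRK-49F from 417 ± 53.8 FPM to 113 ± 13.3 FPM, a log2 fold change of −1.90 ± 0.12 (FDR 2.11e-07). Gpc3, a glypican that binds Wnts, rose in NRK-52E from 12.9 ± 1.65 FPM to 23.8 ± 5.09 FPM, a log2 fold change of 0.87 ± 0.18 (FDR 0.00126). Within a number the change of Gpc3 was 0.68 in the libraries numbered 21 and 1.01 in those numbered 22, called in neither. Reck fell in NRK-49F from 155 ± 14 FPM to 83.0 ± 8.41 FPM, with −0.92 ± 0.10 (FDR 1.47e-05). Reck, called lower in both lines, had an interaction of −1.43 ± 0.19 (FDR 9.08e-06).

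Other secreted or surface inhibitors had 3 tested genes, of which 2 fell in each line (medians −2.81 in NRK-52E and −1.71 in NRK-49F). Apcdd1, a membrane inhibitor that is itself a target of beta-catenin, fell in NRK-52E from 91.7 ± 8.13 FPM to 6.34 ± 3.39 FPM, a log2 fold change of −3.86 ± 0.30 (FDR 1.31e-06). Apcdd1 in NRK-49F fell from 16.9 ± 1.53 FPM to 2.43 ± 0.469 FPM, with −2.79 ± 0.17 (FDR 1.90e-07). Trabd2b, a protease that inactivates Wnts, fell in NRK-52E from 3.15 ± 0.577 FPM to 0.438 ± 0.348 FPM, a log2 fold change of −2.81 ± 0.48 (FDR 3.57e-04). Its change was −2.42 in the libraries numbered 21 and −3.22 in those numbered 22, the latter not called. Trabd2b in NRK-49F fell from 13.3 ± 3.34 FPM to 4.12 ± 0.822 FPM, with −1.71 ± 0.21 (FDR 3.51e-05). Igfbp4 was the third tested gene and was called in neither line.

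The cytoplasmic signal and destruction complex had 18 tested genes, with 11 higher and 2 lower in NRK-52E and 4 higher and 1 lower in NRK-49F (medians 0.35 and 0.12). Csnk1g1, a casein kinase that phosphorylates Lrp6, rose in NRK-52E from 2.65 ± 0.886 FPM to 17.6 ± 3.65 FPM, a log2 fold change of 2.70 ± 0.26 (FDR 6.71e-06). Dvl1, a Dishevelled adaptor beneath the receptors, rose in NRK-52E from 82.8 ± 0.713 FPM to 145 ± 11.3 FPM, a log2 fold change of 0.79 ± 0.08 (FDR 7.42e-06). Dvl1 changed by 0.80 in the libraries numbered 21 and 0.76 in those numbered 22, the latter not called. Gsk3b, the kinase that marks beta-catenin for breakdown, rose in NRK-52E from 29.4 ± 5.50 FPM to 60.7 ± 19.7 FPM, a log2 fold change of 1.02 ± 0.24 (FDR 0.00333). The groups of Gsk3b overlapped through N8, and its call was lost without N1 (0.89), N3 (0.94), N4 (0.90) and N6 (1.01), with an FDR between 0.0104 and 0.0138, with library totals (0.81 (FDR 0.0148)) and within the libraries numbered 22 (0.61, against 1.38 in those numbered 21). Amer1, a membrane partner of Apc and Axin, fell in NRK-52E from 48.5 ± 10 FPM to 5.64 ± 2.72 FPM, a log2 fold change of −3.12 ± 0.31 (FDR 7.64e-06). Ctnnb1, the gene of beta-catenin, fell in NRK-52E from 249.6 ± 6.60 FPM to 174 ± 29.1 FPM, a log2 fold change of −0.55 ± 0.11 (FDR 0.00103). Ctnnb1 changed by −0.57 in the libraries numbered 21 and −0.55 in those numbered 22, the latter not called.

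Tnks, a tankyrase that promotes the breakdown of Axin, rose in NRK-49F from 5.78 ± 2.13 FPM to 17.8 ± 2.88 FPM, a log2 fold change of 1.59 ± 0.24 (FDR 1.54e-04). Csnk1g1 rose in NRK-49F from 0.728 ± 0.282 FPM to 2.11 ± 0.383 FPM, with 1.53 ± 0.33 (FDR 0.00225), and 1.40 in the libraries numbered 20 and 1.75 in those numbered 21, called in neither. Gsk3b rose there from 14 ± 1.71 FPM to 27 ± 2.5 FPM, with 0.93 ± 0.13 (FDR 8.76e-05). Csnk1g2, a further casein kinase of the same family, fell in NRK-49F from 206 ± 17.1 FPM to 142 ± 18.4 FPM, a log2 fold change of −0.55 ± 0.11 (FDR 0.00107). Its change was −0.35 in the libraries numbered 20 and −0.74 in those numbered 21, the latter not called. In NRK-52E Csnk1g2 was called in the other direction and rose from 141 ± 9.72 FPM to 183 ± 10 FPM, with 0.35 ± 0.08 (FDR 0.00267), a call lost without N5 (0.30) and N6 (0.31), with an FDR between 0.0160 and 0.0228, with library totals (0.14 (FDR 0.120)), with no filter (0.32) and within a number, where it was 0.30 in the libraries numbered 21 and 0.39 in those numbered 22. The interaction was −3.25 ± 0.43 (FDR 7.80e-06) for Amer1 and 0.90 ± 0.14 (FDR 4.11e-05) for Csnk1g2.

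The nuclear TCF/LEF complex had 14 tested genes in NRK-52E, with 9 lower and 5 not called, and 15 in NRK-49F, with 1 higher and 7 lower (medians −0.89 and −0.39). Tcf7, a TCF factor and itself a target of the pathway, fell in NRK-52E from 8.90 ± 0.838 FPM to 1.54 ± 0.765 FPM, a log2 fold change of −2.53 ± 0.30 (FDR 3.08e-05). Tcf7 in NRK-49F rose from 3.20 ± 1.12 FPM to 7.77 ± 1.42 FPM, with 1.25 ± 0.25 (FDR 0.00122), and 1.32 in the libraries numbered 20 and 1.19 in those numbered 21, the latter not called. The difference between the lines was called, with an interaction of −3.79 ± 0.41 (FDR 8.57e-07). Tcf7l1, a TCF factor that mostly represses, fell in NRK-52E from 29.4 ± 3.29 FPM to 10.4 ± 1.26 FPM, a log2 fold change of −1.52 ± 0.14 (FDR 4.21e-06). Tcf7l1 in NRK-49F fell from 37.2 ± 3.96 FPM to 25.9 ± 2.59 FPM, with −0.54 ± 0.11 (FDR 0.00152), and −0.41 in the libraries numbered 20 and −0.65 in those numbered 21, called in neither. Tle2, a Groucho co-repressor, fell in NRK-52E from 3.77 ± 0.521 FPM to 0.962 ± 0.180 FPM, a log2 fold change of −1.99 ± 0.24 (FDR 2.70e-05). Tle2 changed by −2.12 in the libraries numbered 21 and −1.88 in those numbered 22, the latter not called. Tle2 in NRK-49F fell from 37.8 ± 9.07 FPM to 16 ± 1.5 FPM, with −1.25 ± 0.15 (FDR 3.35e-05). Tle1, another co-repressor of that family, fell in NRK-49F from 32.9 ± 4.28 FPM to 9.46 ± 1.58 FPM, a log2 fold change of −1.81 ± 0.15 (FDR 1.53e-06). Bcl9l, a co-activator that binds beta-catenin, fell in NRK-49F from 127 ± 41.7 FPM to 62.2 ± 8.62 FPM, a log2 fold change of −1.05 ± 0.21 (FDR 0.00110). The groups of Bcl9l overlapped through N13, and it changed by −1.05 in the libraries numbered 20 and −1.03 in those numbered 21, the latter not called. Bcl9l in NRK-52E fell from 149 ± 14.7 FPM to 70.3 ± 24.0 FPM, with −1.11 ± 0.22 (FDR 9.17e-04), and −0.93 in the libraries numbered 21 and −1.34 in those numbered 22, the latter not called. Interactions were 1.91 ± 0.22 (FDR 1.78e-06) for Tle1 and −1.0 ± 0.18 (FDR 1.51e-04) for Tcf7l1.

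Known beta-catenin target genes had 13 tested genes in NRK-52E, with 4 higher and 8 lower, and 14 in NRK-49F, with 8 higher and 3 lower (medians −0.64 and 1.01). Each of them also has other regulators, and Apcdd1 and Tcf7, described above, belong to this list as well. Cd44, a hyaluronan receptor, rose in NRK-52E from 4.17 ± 0.658 FPM to 18.5 ± 3.5 FPM, a log2 fold change of 2.13 ± 0.19 (FDR 2.96e-06). Cd44 in NRK-49F rose from 244 ± 14.4 FPM to 483 ± 39.9 FPM, with 0.97 ± 0.09 (FDR 5.51e-06). Ccn5, a matricellular protein, fell in NRK-52E from 17.3 ± 1.68 FPM to 1.01 ± 0.709 FPM, a log2 fold change of −4.11 ± 0.36 (FDR 2.96e-06). With 1 library left out the change of Ccn5 was between −4.75, without N8, and −3.88. Nkd2, a feedback inhibitor that binds Dishevelled, rose in NRK-52E from 0.822 ± 0.191 FPM to 1.97 ± 0.570 FPM, a log2 fold change of 1.23 ± 0.30 (FDR 0.00352). The call of Nkd2 was lost without N1 (1.13), N2 (1.15), N4 (1.07), N6 (1.23) and N7 (1.18), with an FDR between 0.0108 and 0.0147, and with library totals (1.03 (FDR 0.0125)), and it was 1.68 in the libraries numbered 21 and 0.80 in those numbered 22, called in neither. Nkd2 in NRK-49F rose from 0.572 ± 0.246 FPM to 1.44 ± 0.175 FPM, with 1.28 ± 0.35 (FDR 0.00834), a call lost without N9 (1.18), N10 (1.07), N11 (1.21), N12 (1.25), N13 (1.34), N15 (1.35) and N16 (1.32), with an FDR between 0.0125 and 0.0291, with no filter (1.30 (FDR 0.0113)) and within a number, where it was 2.06 in the libraries numbered 20 and 0.71 in those numbered 21. Fosl1, an AP-1 subunit, rose in NRK-52E from 1.87 ± 0.439 FPM to 4.13 ± 1.42 FPM, a log2 fold change of 1.11 ± 0.29 (FDR 0.00586). The groups of Fosl1 overlapped in NRK-52E, and the call was lost without N1 (1.0), N2 (1.13), N3 (0.89), N4 (1.06), N6 (1.03) and N7 (1.16), with an FDR between 0.0104 and 0.0229, with library totals (0.89 (FDR 0.0184)) and within the libraries numbered 22 (0.59, against 1.53 in those numbered 21). In NRK-49F Fosl1 rose from 34.2 ± 4.36 FPM to 146 ± 18.6 FPM, with 2.08 ± 0.12 (FDR 1.68e-07).

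Sox9, a factor of progenitor and injured tubule cells, rose in NRK-49F from 17.2 ± 2.21 FPM to 70.7 ± 4.8 FPM, a log2 fold change of 2.03 ± 0.11 (FDR 7.07e-08). Sox9 had no count in any NRK-52E library. Myc, a growth regulator, rose in NRK-49F from 20.1 ± 0.936 FPM to 77.7 ± 19.2 FPM, a log2 fold change of 1.93 ± 0.16 (FDR 2.19e-06). In NRK-52E Myc was called in the other direction and fell from 20.9 ± 1.95 FPM to 14 ± 2.54 FPM, with −0.60 ± 0.15 (FDR 0.00443), a call lost without N1 (−0.57), N2 (−0.58), N4 (−0.59) and N7 (−0.54), with an FDR between 0.0102 and 0.0166, and within a number, where it was −0.57 in the libraries numbered 21 and −0.66 in those numbered 22. The interaction of Myc was −2.55 ± 0.23 (FDR 9.25e-08), and that of Cd44 was 1.14 ± 0.18 (FDR 5.65e-05). Ccn5 in NRK-49F fell from 219 ± 20.2 FPM to 33.1 ± 11.1 FPM, with −2.74 ± 0.19 (FDR 5.71e-07). Axin2, the feedback scaffold most often used as a readout of the pathway, fell in NRK-49F from 13.8 ± 3.96 FPM to 4.34 ± 1.24 FPM, a log2 fold change of −1.66 ± 0.23 (FDR 9.71e-05). Axin2 in NRK-52E fell from 42.9 ± 4.24 FPM to 8.85 ± 1.68 FPM, with −2.30 ± 0.15 (FDR 4.71e-07), and the interaction was not called (−0.65 ± 0.29, FDR 0.0719).

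Planar cell polarity genes had 13 tested in NRK-52E, with 3 higher and 7 lower, and 10 in NRK-49F, with 3 lower and 7 not called (medians −1.01 and −0.50). Celsr2, an atypical cadherin of the polarity complex, fell in NRK-52E from 595 ± 30.5 FPM to 108 ± 27.7 FPM, a log2 fold change of −2.48 ± 0.17 (FDR 5.80e-07). Celsr1, its paralog, fell in NRK-52E from 73.4 ± 15 FPM to 18.1 ± 5.70 FPM, a log2 fold change of −2.04 ± 0.22 (FDR 1.50e-05). Invs, a ciliary protein that acts on Dishevelled, fell in NRK-52E from 5.43 ± 0.943 FPM to 0.845 ± 0.286 FPM, a log2 fold change of −2.67 ± 0.27 (FDR 7.47e-06). Vangl1, a membrane core protein of polarity, rose in NRK-52E from 85.9 ± 5.70 FPM to 222 ± 18.9 FPM, a log2 fold change of 1.35 ± 0.09 (FDR 5.22e-07). The interaction was −2.21 ± 0.37 (FDR 7.93e-05) for Invs and 1.42 ± 0.15 (FDR 5.71e-07) for Vangl1. Prickle3, a cytoplasmic core protein, rose in NRK-52E from 0.358 ± 0.117 FPM to 1.66 ± 0.444 FPM, a log2 fold change of 2.19 ± 0.35 (FDR 2.29e-04). Prickle3 was low, and changed by 2.08 in the libraries numbered 21 and 2.25 in those numbered 22, called in neither. Daam2, a formin that binds Dishevelled, rose in NRK-52E from 0.661 ± 0.218 FPM to 2.05 ± 0.886 FPM, a log2 fold change of 1.60 ± 0.41 (FDR 0.00511). The groups of Daam2 overlapped, and its call was lost without N1 (1.65), N2 (1.42), N3 (1.47), N4 (1.55), N6 (1.5) and N7 (1.45), with an FDR between 0.0121 and 0.0194, with library totals (1.39 (FDR 0.0120)) and within a number, where it was 2.0 in the libraries numbered 21 and 1.17 in those numbered 22.

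Prickle2, a further Prickle protein, fell in NRK-49F from 12.9 ± 3.08 FPM to 7.23 ± 0.683 FPM, a log2 fold change of −0.84 ± 0.18 (FDR 0.00211). Prickle2 changed by −1.08 in the libraries numbered 20 and −0.53 in those numbered 21, the latter not called. Prickle2 in NRK-52E fell from 37.2 ± 2.64 FPM to 13.4 ± 2.20 FPM, with −1.49 ± 0.13 (FDR 3.63e-06). Dact3, a Dishevelled antagonist, fell in NRK-49F from 31.6 ± 4.64 FPM to 23.3 ± 0.995 FPM, a log2 fold change of −0.46 ± 0.12 (FDR 0.00545). The call of Dact3 was lost without N9 (−0.47), N11 (−0.44), N12 (−0.45), N14 (−0.37), N15 (−0.47) and N16 (−0.44), with an FDR between 0.0121 and 0.0163, with library totals (−0.41 (FDR 0.0116)) and with all 16 libraries in the fit (−0.46 (FDR 0.0114)), and within a number it was −0.33 in the libraries numbered 20 and −0.55 in those numbered 21, called in neither.

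**Figure D3:**
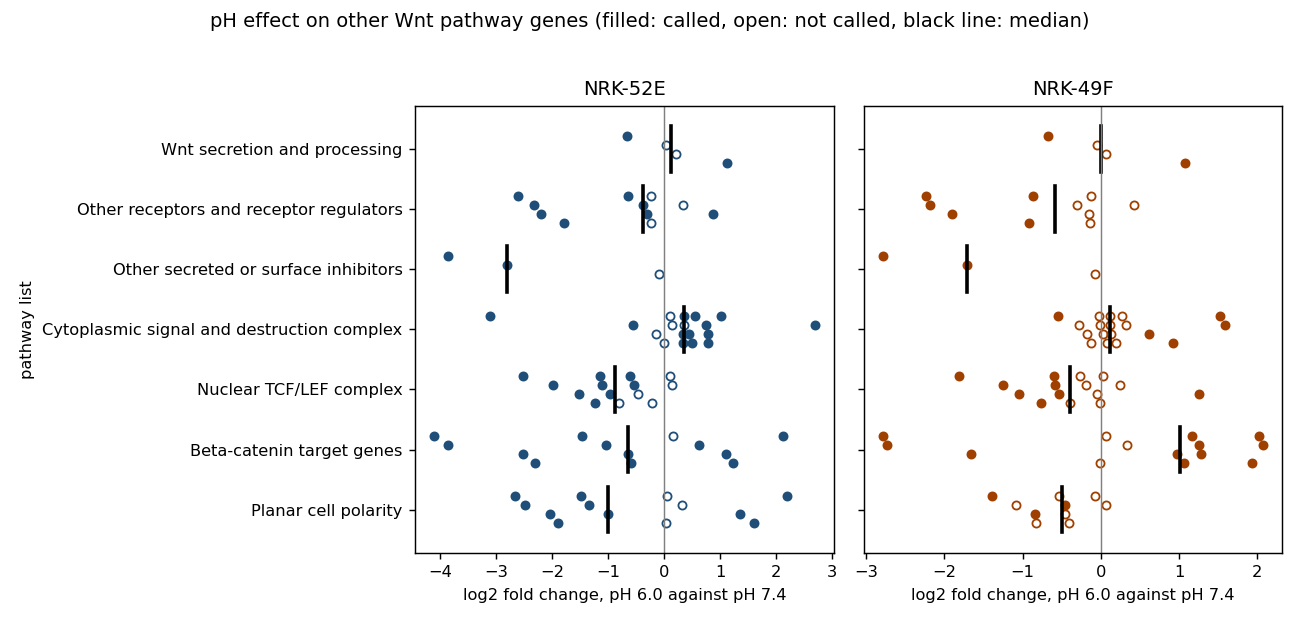
Log2 fold change at pH 6.0 against pH 7.4 of the tested genes of the 7 pathway lists in NRK-52E and NRK-49F, on TMM scaling, with 1 point per gene, filled where called, and a black line at each list's median. The TCF/LEF list has medians of −0.89 and −0.39 and the list of target genes −0.64 and 1.01.

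Promoter sequence was examined for the members that moved in both lines. RefSeq promoters of build GRCr8, from 250 bases before the gene start to 50 after it, were searched on both strands for the TCF/LEF motif letters CTTTGAA and CTTTGTT. Of 33469 promoters 3666 (11%) held at least 1 match, and of 30 members with an entry 4 did: Dkk1 with 2 matches, and Fzd7, Wnt3 and Wnt8a with 1 each. Among the 8 members called in both lines, Fzd1, Fzd4, Fzd8, Rspo1, Wif1 and Wnt4 had an entry and none held a match, and Fzd6 and Wnt7b had no entry. No match says only that these letters are not in this window. The sequences of the 3 members that fell in both lines are shown, and that of Fzd7 as the tested member with a match, which stands in capitals. They are Fzd1 (chr4:30264824-30265123, + strand), Fzd4 (chr1:152692257-152692556, + strand), Rspo1 (chr5:142536040-142536339, + strand) and Fzd7 (chr9:68425288-68425587, + strand).
Fzd1: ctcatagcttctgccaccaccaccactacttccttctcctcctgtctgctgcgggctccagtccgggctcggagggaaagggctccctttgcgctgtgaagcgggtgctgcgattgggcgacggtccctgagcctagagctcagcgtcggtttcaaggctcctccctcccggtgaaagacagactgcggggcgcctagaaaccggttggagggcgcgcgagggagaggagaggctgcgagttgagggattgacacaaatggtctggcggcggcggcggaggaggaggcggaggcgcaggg
Fzd4: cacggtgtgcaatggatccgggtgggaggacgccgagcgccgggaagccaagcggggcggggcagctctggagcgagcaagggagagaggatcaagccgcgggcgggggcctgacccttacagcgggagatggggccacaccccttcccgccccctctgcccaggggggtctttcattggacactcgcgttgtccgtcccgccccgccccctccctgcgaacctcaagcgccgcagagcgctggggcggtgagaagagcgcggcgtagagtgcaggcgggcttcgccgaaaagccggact
Rspo1: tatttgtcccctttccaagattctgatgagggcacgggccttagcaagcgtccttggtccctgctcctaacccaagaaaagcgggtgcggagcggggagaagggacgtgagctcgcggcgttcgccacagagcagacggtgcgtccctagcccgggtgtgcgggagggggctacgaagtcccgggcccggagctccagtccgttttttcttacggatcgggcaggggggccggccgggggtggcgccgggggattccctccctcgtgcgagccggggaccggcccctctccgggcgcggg
Fzd7: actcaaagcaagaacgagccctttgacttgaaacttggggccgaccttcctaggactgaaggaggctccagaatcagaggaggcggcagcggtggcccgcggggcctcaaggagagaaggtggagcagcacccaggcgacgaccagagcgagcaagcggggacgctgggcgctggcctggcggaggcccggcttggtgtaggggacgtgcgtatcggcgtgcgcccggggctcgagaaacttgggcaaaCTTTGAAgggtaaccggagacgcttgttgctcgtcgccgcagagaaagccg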

How the data were processed

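RNA of the 2 cell lines was sequenced as paired reads of 150 bases. The authors deposited whole-number counts of fragments per gene, made with featureCounts, which were used as deposited, on build rn6. The submitters' processing notes name HISAT2 2.1.0 as aligner while the study's methods name another program, so the aligner is uncertain. The column-name number was read from the table's headers.

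Each comparison of 2 groups used its 8 libraries in R 4.3.3, with edgeR 4.0.16 (TMM, filterByExpr, quasi-likelihood test) and DESeq2 1.42.0 (Wald test) on all genes of the table. A gene was called at a Benjamini-Hochberg FDR below 0.01 in both with the same sign. The interaction was tested in edgeR over 16 libraries. SE is the log2 fold change over the root of the F statistic. Ratios of low counts have exact 95% intervals from the group's counts and depths (scipy 1.17.1), and floors are 3 counts over a group. FPM are edgeR's CPM of these fragments with TMM. Sequences were searched and figures drawn in Python 3.11.15.

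Values of single libraries are given for members called for pH whose higher group had a mean of 1 FPM or more, the 6 largest rises and 6 largest falls per line, and for the 6 largest differences each way between the lines at pH 7.4, which gave 20 members. Of each pathway list the 3 largest called rises and falls per line are named, with the change in the other line where called, save 1 gene of the polarity list that is not reported here. The members and lists were chosen with earlier results of these data known. The interactions and line differences given for other genes, and Wnt5a by library, were chosen after their values were seen. Alternatives were DESeq2 size factors, library totals, no filter, a filter of 1 CPM in 4 libraries, a joint fit of all 16 libraries, either tool by itself, an FDR of 0.05, the column-name number as a covariate or as separate fits, and each library left out. The fits were tested on simulated data. Of the genes of the pathway and marker lists, Znrf3, Axin1 and Pecam1 are not analysed here.

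Totals of 16201084 to 34784862 fragments per library set the precision, and members under about 10 counts per library could not be tested. Of the pairs of libraries within a group, N2 and N6 were the most alike, with a chi-square per degree of freedom of 6.12, more than counting noise alone. The furthest apart were N4 and N8, at 92.2, and N7 and N8, at 71.5, all in NRK-52E at pH 6.0. Without N8, 4352 genes were called higher and 4562 lower at pH 6.0 in NRK-52E, beside 3877 and 3916 with it. These values do not decide whether libraries are separate preparations of the same RNA.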

Additional observations from a re-analysis of the deposited data

Results flagged for a closer look

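In 5 of 69 groups of 4 libraries checked, 1 library stood apart from the other 3, where chance gives about 1 in 20 groups, or 3.45. Fzd1 in NRK-49F at pH 7.4 was at 186 FPM in N14, against 145 to 148 FPM in the others. Wnt7b in the same group was at 18.9 FPM in N14, against 11.8 to 12.7 FPM. Fzd7 in that group was at 9.35 FPM in N13, against 23.8 to 25.2 FPM, and Wnt10b at 15.7 FPM in N13, against 19.1 to 19.7 FPM. Lrp5 in NRK-52E at pH 6.0 was at 62.5 FPM in N8, against 81.5 to 82.5 FPM. Leaving out N13 or N14 changed no call of a member for pH in NRK-49F. Without N8, no call of a member for pH in NRK-52E was lost and those of Dkkl1 and Fzd2 were gained.

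The pH effect differed between the lines by the edgeR interaction test for 8 of 26 members, 3 with the more positive effect in NRK-52E (19.4% of all tested genes) and 5 in NRK-49F (17.6%). The change in NRK-52E minus that in NRK-49F was −2.94 on the log2 scale for Fzd8, −1.35 for Fzd1, −1.06 for Fzd6, −0.88 for Wnt7b and −0.67 for Wnt5a, and 1.96 for Fzd4, 1.62 for Wnt4 and 1.11 for Fzd2.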

How the results depend on the processing

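With library totals, 2 members were called higher at pH 6.0 in NRK-52E in place of 4. Within 1 column-name number, where each group has 2 libraries, 2 were called higher in number 21 and 0 in number 22, where edgeR alone also called 0 and 4 had an unadjusted p below 0.05 in edgeR. In number 22, 4 members were called lower in place of 10, and in NRK-49F, in number 21, 5 in place of 8. These fits hold fewer libraries. Of all genes they called 1433 higher and 1387 lower in number 22 in NRK-52E, beside 3877 and 3916 in the fit of 8 libraries, 2488 and 2756 in number 21, and in NRK-49F 999 and 981 in number 21, beside 2456 and 2583. Number 20 in NRK-49F, with as few libraries, gave 2327 higher and 2353 lower, and the cause of the lower counts elsewhere was not tested. Of the 90 pathway-list genes in the table, not all of them tested in each fit, 22 were called in number 22 in NRK-52E, beside 53. In NRK-49F 18 were called in number 21, beside 34.

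None of the values that changed sign belonged to a called change, and the cause was not tested. Fzd7 in NRK-52E was 0.16 in number 21 and, with 1 library left out, between −0.26 and 0.13, the latter without N8. Wnt9a in NRK-52E was −0.03 with library totals and −0.02 in number 22. In NRK-49F, number 21 gave 0.16 for Lrp6 and 0.01 for Wnt10b, and number 20 gave −0.37 for Wnt5b and −0.01 for Wnt9a. The fold changes followed through the alternatives are a selection, most of them called, and for these 2886 values kept their direction and side of the threshold, 177 lost the call, 6 gained one and 8 changed sign. Calls gained outside that selection, such as those of Dkkl1 and Sfrp5 and that of Rspo3 between the lines at pH 7.4, are not in these counts. Nor are 6 called values lost because the gene fell below a filter and was not tested, 3 of Rspo3 in NRK-49F and 1 each of Wnt2b, Wnt11 and Wnt5b between the lines.

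With 1 library left out, the members called higher and lower at pH 6.0 were 3 to 4 and 8 to 12 in NRK-52E and 4 to 4 and 7 to 8 in NRK-49F. Between the lines they were 14 to 15 and 7 to 9 at pH 7.4 and 10 to 11 and 9 to 9 at pH 6.0, and for the interaction 3 to 3 and 5 to 6. Of all genes the same fits called 3271 to 4352 higher and 3436 to 4562 lower in NRK-52E, 1992 to 2457 and 2133 to 2589 in NRK-49F, 4227 to 4683 and 4325 to 4670 between the lines at pH 7.4, 3597 to 4443 and 3867 to 4820 at pH 6.0, and 2016 to 2987 and 2271 to 2986 for the interaction. The replicate numbers N1 to N16 are each used once and do not show which libraries of the 2 lines shared a co-culture. Single libraries were therefore not paired, and the line comparisons and the interaction treat them as independent. The column-name number is shared by the 2 pH groups of a line, and with it as a covariate the call of Lrp6 in NRK-52E was the only pH call of a member lost. Depth limits the members with few counts, for which a difference may not have been detectable. With 4 libraries a group, and 2 within a number, a missed call does not show that levels were equal.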
